A study of Mus musculus with 39 samples.

Results

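The immediate early genes followed here are Fos, Fosb, Jun, Junb, Egr1, Egr3, Arc, Nr4a1, Npas4 and Ier2. They were chosen by name, through the Ensembl identifier of each row of the deposited count table and its symbol in GENCODE M21, and all 10 were found among 55401 genes. All 10 passed the count filter in the fits described below, unless stated otherwise. The 39 libraries hold RNA of cells enriched with ACSA-2 beads, which bind an astrocyte surface epitope carried by the ATPase subunit Atp1b2. The cells came from male mice of 3 conditions. Control mice carry that label alone. Susceptible and resilient mice had gone through chronic social defeat stress, in which a mouse meets an aggressor repeatedly and is then classed by its social behaviour. The NAc (nucleus accumbens) groups hold 7 control, 8 susceptible and 7 resilient libraries, and the PFC groups hold 6, 6 and 5. PFC, taken here as prefrontal cortex, is the tissue label of those 17 libraries, although their protocol text speaks only of NAc punches. The sources used here do not give strain, genotype, age, the delay between stress and dissection, or whether mice were pooled. Each library carries its own mouse number, with odd numbers in the PFC and even numbers in the NAc. In all 16 cases where an odd number and the next even number are both present, the condition is the same, so neighbours may be the same mouse. The labels do not say so, and libraries were treated as separate samples.

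Immediate early genes are switched on within minutes of a stimulus without new protein synthesis, and their RNA decays quickly. Calcium and growth factor signals reach them through MAP kinases, CREB, and SRF with its partners. Most of their products are transcription factors that go on to control later genes. In the brain they are widely read as a mark of recent neuronal activity. Glia induce several of them as well, and enzymatic or mechanical dissociation of tissue is known to induce them in cells of many types. Fos, Fosb, Jun and Junb encode parts of the AP-1 dimer, Egr1 and Egr3 are zinc finger factors, and Nr4a1 is an orphan nuclear receptor. Npas4 is a neuronal activity-dependent factor, Arc a synaptic protein, and Ier2 a nuclear protein induced by growth factors.

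Promoter sequences from RefSeq (GRCm38.p6) were matched for Fos, Fosb, Jun, Junb, Nr4a1 and Npas4, taking the 250 bases before the annotated start. The core of the cAMP response element, TGACG on either strand, is the site class through which CREB acts on this family. The windows of 4 genes are shown because they hold from 4 copies of that core to none, and because Jun, without one, had the highest level in the NAc. Capitals mark each TGACG or its reverse complement CGTCA.
Fos, chr12:85473640-85473889 (+): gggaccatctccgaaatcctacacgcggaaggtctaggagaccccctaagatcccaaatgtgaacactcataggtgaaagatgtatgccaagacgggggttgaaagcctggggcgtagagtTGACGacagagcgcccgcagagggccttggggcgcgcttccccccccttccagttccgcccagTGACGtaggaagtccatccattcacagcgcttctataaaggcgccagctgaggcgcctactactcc
Nr4a1, chr15:101266596-101266845 (+), inside the M21 gene span: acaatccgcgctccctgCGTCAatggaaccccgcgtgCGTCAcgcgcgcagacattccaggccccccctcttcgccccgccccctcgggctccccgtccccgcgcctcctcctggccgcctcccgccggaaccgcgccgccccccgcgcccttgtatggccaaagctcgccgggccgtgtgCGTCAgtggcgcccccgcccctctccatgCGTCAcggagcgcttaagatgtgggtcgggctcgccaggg
Junb, chr8:84978749-84978998 (-): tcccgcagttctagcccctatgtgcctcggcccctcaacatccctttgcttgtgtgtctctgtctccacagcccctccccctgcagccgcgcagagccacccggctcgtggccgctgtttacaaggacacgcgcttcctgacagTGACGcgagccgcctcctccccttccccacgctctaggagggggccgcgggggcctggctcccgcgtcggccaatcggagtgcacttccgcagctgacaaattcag
Jun, chr4:95052223-95052472 (-): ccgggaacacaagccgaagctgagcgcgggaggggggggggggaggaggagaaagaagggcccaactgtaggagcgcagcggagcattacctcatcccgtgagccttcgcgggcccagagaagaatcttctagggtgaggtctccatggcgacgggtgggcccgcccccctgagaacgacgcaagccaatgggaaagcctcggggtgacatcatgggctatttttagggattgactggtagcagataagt
The core lies in the windows of 5 of 6 genes (Fos, Fosb, Junb, Nr4a1 and Npas4) and in 17.8% of 32851 mouse promoter windows of the same length. Nr4a1 holds 4 copies, at positions -233, -213, -69 and -40 relative to the start, Fos holds 2, at -129 and -66, and Npas4 holds 2, at -179 and -169. The Jun window holds none. The 8-base element TGACGTCA, which contains the core, was in none of the 6 windows and in 1.55% of all promoters. The AP-1 motif TGANTCA was in none of them and in 6.75% of all promoters, and the CArG box bound by SRF was in none and in 1.47%. TATAAA was found in Fos alone, against 12.4% of all promoters. The GC box GGGCGG was in 5 of 6 windows, all but Junb, against 32.7%. These matches describe the letters of these windows and say nothing about binding in these cells.

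The counts cover whole gene spans, introns included. On mm10, Fos spans chr12:85473890-85477273 (+), Fosb chr7:19302696-19310051 (-), Jun chr4:95049034-95052222 (-), Egr1 chr18:34859823-34864984 (+) and Egr3 chr14:70077203-70082614 (+). Arc spans chr15:74669083-74672570 (-), Nr4a1 chr15:101254269-101274795 (+) and Npas4 chr19:4984355-4990316 (-). The share of the span that is exonic in GENCODE M21 was 100% for Jun, 87.6% for Arc, 86.9% for Egr1, 84.9% for Fosb, 81.4% for Egr3, 69.5% for Fos and 69.4% for Npas4. For Nr4a1 it was 17.1% of 20527 bases, so most bases counted for this gene are intronic. The deposited lengths of Junb (1809 bases) and Ier2 (1524 bases) differ from their M21 spans, and no coordinates are given for these genes. Jun overlaps its antisense gene Junos, and Junb overlaps Prdx2 in M21. The strand setting of the counting is not given in the sources used here, so the values of Jun and Junb may hold reads of those partners.

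The libraries hold 941450 to 37339379 counts with a median of 11264270. A background cover was measured from 1479 olfactory, vomeronasal and trace-amine receptor genes, which are mostly silent outside sensory tissue. Their FPKM (counts scaled by the length of the gene span and the library total) was 13.4% to 81.1% of what an even spread of counts over all gene spans would give. Atp1b2, the bead target, ranged from 11.5 to 141 FPKM, and Slc1a3, an astrocyte glutamate transporter, from 2.86 to 31.1 FPKM. The synaptic gene Snap25 ranged from 0.522 to 1.36 FPKM in the NAc and from 0.711 to 7.03 FPKM in the PFC. The microglial receptor gene Cx3cr1 lay between 0.267 and 0.810 FPKM. In the PFC, 5 libraries stand apart: PFC control 1 and 2, susceptible 1, and resilient 1 and 2, with sample numbers 1, 7, 3, 5 and 11. Their pan-neuronal level, the mean log2 CPM (counts scaled to library totals adjusted by edgeR's trimmed mean) of 20 neuronal genes, was 6.33 to 7.38, against 4.94 to 5.65 in the other PFC libraries and 4.72 to 5.36 in the NAc. Their background was 13.4% to 36.8%, against 43.6% or more in the other PFC libraries.

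All 10 immediate early genes were low in the NAc libraries. The highest was Jun, with a median of 2.71 FPKM (range 0.894 to 7.99, 22 libraries), followed by Arc with 1.86 (0.898 to 3.41). The next 5 had medians between 1.01 and 1.16 FPKM, in the order Egr1, Nr4a1, Fos, Junb and Npas4, and differed by less than the SD of any of them. Egr3 had a median of 0.806 FPKM, Fosb 0.720 and Ier2 0.621. Arc stood above Egr1 by more than the SD of either, while all other neighbours in this order differed by less than the SD of at least 1 of the pair. Relative to the receptor-gene background of the same library, the median was 5.92 times for Jun, 4.43 for Arc, 2.79 for Egr1 and 2.51 for Fos. It was 1.85 times for Egr3, 1.62 for Fosb and 1.33 for Ier2, whose regional mean exceeded that of 95.5%, 93.4% and 92.1% of the single receptor genes. Fosb and Egr3 lay above background in 18 of 22 NAc libraries and Ier2 in 14, so the values of these genes are close to what silent genes give. Median counts per library were 101 for Jun, 68.5 for Arc, 60.5 for Fos, 24.5 for Junb and 10.5 for Ier2.

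In the PFC libraries the order was Arc (median 3.22 FPKM, range 1.74 to 23.7, 17 libraries), Jun (2.98, 1.40 to 11.3), Egr1 (2.12, 1.27 to 16.9) and Egr3 (2.04, 0.604 to 11.9). Fos (1.51), Junb (1.45), Npas4 (1.34), Nr4a1 (1.32), Fosb (0.796) and Ier2 (0.739) followed. All neighbours in this order differed by less than the SD of at least 1 of the pair. The spread of Arc, Egr1 and Egr3 over PFC libraries, with SDs of 6.34, 4.64 and 3.64 FPKM, was as large as their means of 6.25, 4.46 and 3.63 FPKM, whereas in the NAc the SD of Arc was 0.640 around a mean of 1.86 FPKM.

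**Figure D1:**
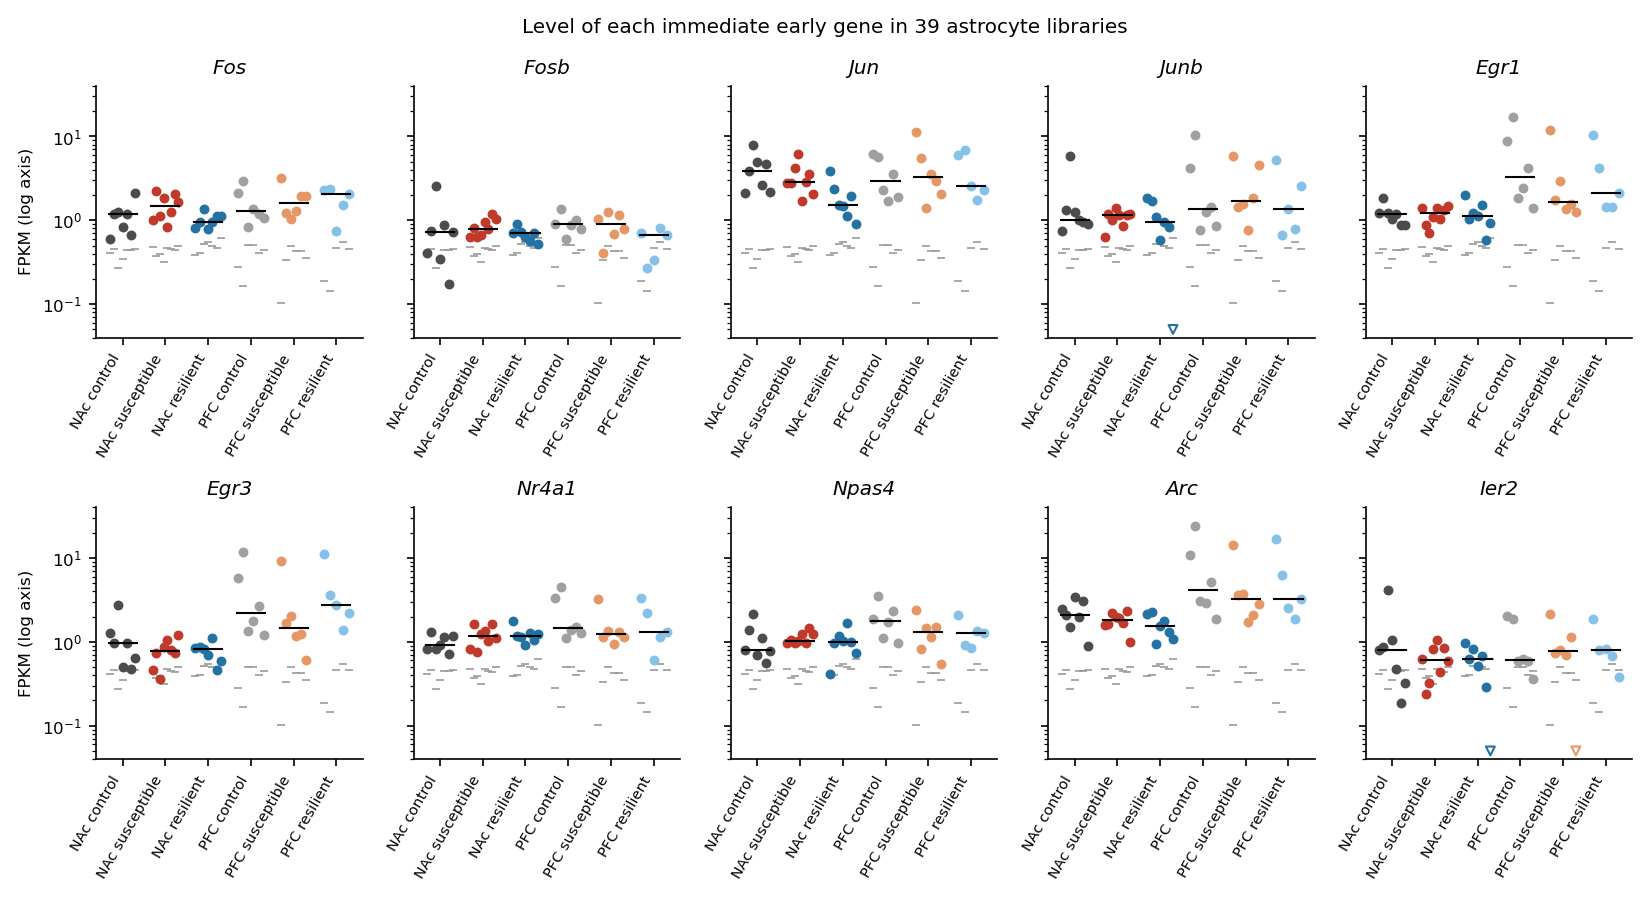
FPKM of each gene (log axis) in every library by group, with a black line at the group median and a grey dash at the receptor-gene background of the same library; open triangles at the lower edge are libraries with 0 counts. In the NAc the medians run from 0.621 FPKM (Ier2), near the background, to 2.71 FPKM (Jun), above it, and in the PFC the first libraries of each group are far above the rest for Arc, Egr1 and Egr3.

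The first question is whether immediate early gene RNA in NAc astrocyte libraries differs with susceptibility to defeat stress. No gene of the 10 passed an adjusted p of 0.05 in any of the 3 NAc comparisons with edgeR's quasi-likelihood test, where 0% of 35943 genes passed in each. At an unadjusted p under 0.05, 0 of the 10 passed between susceptible and control mice, 2 between resilient and control mice, and 2 between susceptible and resilient mice. Over all genes the counts were 1086, 2206 and 1042. DESeq2 and limma-voom called none of the 10 in these comparisons either. The FPKM ranges of the groups overlapped for all 10 genes in all 3 comparisons. Here and below, fewer cells of a type and less RNA per cell cannot be told apart in bulk RNA, and the tests use the variation among libraries of a group, whose origin from separate mice rests on the mouse numbers.

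Jun, which encodes the c-Jun subunit of AP-1, came nearest to a change. Its level was 2.09, 3.88 and 7.99 FPKM (lowest, median and highest) in NAc control libraries, 1.72, 2.83 and 6.16 in susceptible and 0.894, 1.53 and 3.88 in resilient ones. The groups overlapped, but 5 of 7 resilient libraries lay below the lowest control library. In the fit Jun was -1.003 ± 0.38 (log2 fold change ± SE) in resilient against control mice, with an adjusted p of 0.756 in edgeR. Between susceptible and resilient mice it was 0.75 ± 0.35 (adjusted p = 0.998), and between susceptible and control mice -0.25 ± 0.35. The background was 64.6% ± 10.5 (SD, n = 7) in the resilient group and 53.2% ± 9.25 (SD, n = 7) in controls, a difference with an exact permutation p of 0.0519, two-sided, and 0.545 adjusted over 21 such tests. The mean astrocyte marker level was 0.57 log2 CPM lower in resilient than in control libraries (exact p = 0.106, adjusted 0.554). With the background percent as a covariate the resilient value of Jun was -0.47 ± 0.23 (adjusted p = 1.00). Oligodendrocyte markers were lower too: all 12 had a negative fold change in resilient against control mice, with a median of -1.14, 11 at an unadjusted p under 0.05 and 0 called. Their mean level was 5.39 to 7.91 log2 CPM in control and 5.00 to 6.82 in resilient libraries. The part of these markers in the values of Jun was not tested.

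Arc, a synaptic protein gene, lay at 0.898, 2.08 and 3.41 FPKM in NAc control, 0.999, 1.81 and 2.31 in susceptible and 0.951, 1.56 and 2.24 in resilient libraries. The groups overlapped, the highest values were those of control libraries, and 5 of 7 resilient libraries were below the control median. The log2 fold change was -0.58 ± 0.27 for resilient against control mice (adjusted p = 0.756) and -0.42 ± 0.26 for susceptible against control mice (adjusted p = 1.00), where it was -0.25 without NAc control 4. All 12 oligodendrocyte markers had a negative fold change in susceptible against control mice, with a median of -0.80, 7 at an unadjusted p under 0.05 and 0 called, and their part in the value of Arc was not tested. With the background percent as a covariate the resilient value was -0.27 ± 0.25.

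Fos, the most used activity marker of the family, was at 0.603, 1.18 and 2.10 FPKM in NAc control, 0.827, 1.47 and 2.27 in susceptible and 0.783, 0.968 and 1.36 in resilient libraries. Susceptible libraries were above the resilient median in 7 of 8 cases. The difference of susceptible from resilient mice was 0.59 ± 0.24 on the log2 scale (adjusted p = 0.998). Fos was 0.36 ± 0.24 in susceptible and -0.22 ± 0.25 in resilient against control mice. Fosb, whose splice form ΔFosB is known to build up in the NAc under repeated stress, was at 0.175, 0.735 and 2.60 FPKM in control, 0.632, 0.797 and 1.20 in susceptible and 0.517, 0.700 and 0.898 in resilient libraries. Its fold changes against control were 0.32 ± 0.28 and 0.05 ± 0.29. The counts do not separate splice forms. The control group holds both extremes, NAc control 6 with 9 counts and NAc control 3 with 18 counts of 941450.

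Junb was at 0.752, 1.01 and 5.87 FPKM in NAc control, 0.629, 1.15 and 1.39 in susceptible and 0, 0.953 and 1.84 in resilient libraries. The highest value rests on 10 counts, in NAc control 3, and the 0 on a library of 3156259 counts. Both Junb fold changes against control were -0.24, with SEs of 0.36 and 0.38, and without NAc control 3 they were -0.027 and -0.028. Ier2 lay at 0.188, 0.803 and 4.18 FPKM, 0.236, 0.610 and 1.05, and 0, 0.619 and 0.956 FPKM in control, susceptible and resilient libraries, on at most 43 counts. Its fold changes against control, -0.27 ± 0.42 and -0.38 ± 0.44, had the widest SEs of the family in the NAc.

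Egr1, which neurons and glia induce through SRF, lay at 0.869, 1.19 and 1.87 FPKM in NAc control, 0.702, 1.21 and 1.46 in susceptible and 0.585, 1.13 and 2.02 in resilient libraries. Its fold changes against control were -0.09 ± 0.22 and -0.04 ± 0.23. Egr3, which muscle spindles need to form and neurons induce on activity, was at 0.476, 0.968 and 2.75 FPKM, 0.365, 0.769 and 1.20, and 0.459, 0.820 and 1.12 FPKM in the same order, with -0.24 ± 0.27 and -0.27 ± 0.28. Nr4a1 was at 0.711, 0.929 and 1.30 FPKM in control, 0.759, 1.19 and 1.63 in susceptible and 0.922, 1.18 and 1.75 in resilient libraries, with 0.19 ± 0.17 and 0.22 ± 0.18. Npas4, which neurons induce on calcium entry, was at 0.552, 0.799 and 2.14 FPKM, 0.970, 1.04 and 1.46, and 0.419, 0.998 and 1.68 FPKM, with 0.16 ± 0.21 and -0.03 ± 0.21. All of these had an adjusted p of 0.778 or more in edgeR.

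By direction, 4 of the 10 genes had a positive and 6 a negative fold change in susceptible against control mice, with a median of -0.16 beside -0.00 over all genes. In resilient against control mice the split was 2 and 8, with a median of -0.23 beside 0.01, and these comparisons share their control libraries. NAc control 3, with the fewest counts of all libraries, was the highest NAc library for Fosb, Jun, Junb, Egr3, Npas4 and Ier2. Without it the susceptible values were 0.52 for Fosb, -0.13 for Jun, -0.09 for Egr3 and -0.07 for Ier2, and the resilient values 0.26 for Fosb, -0.12 for Egr3 and -0.18 for Ier2. The pan-neuronal level did not differ detectably between conditions in the NAc, with means of 4.97 in control, 4.95 in susceptible and 4.95 in resilient libraries (adjusted exact p = 0.983 for each pair).

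**Figure D2:**
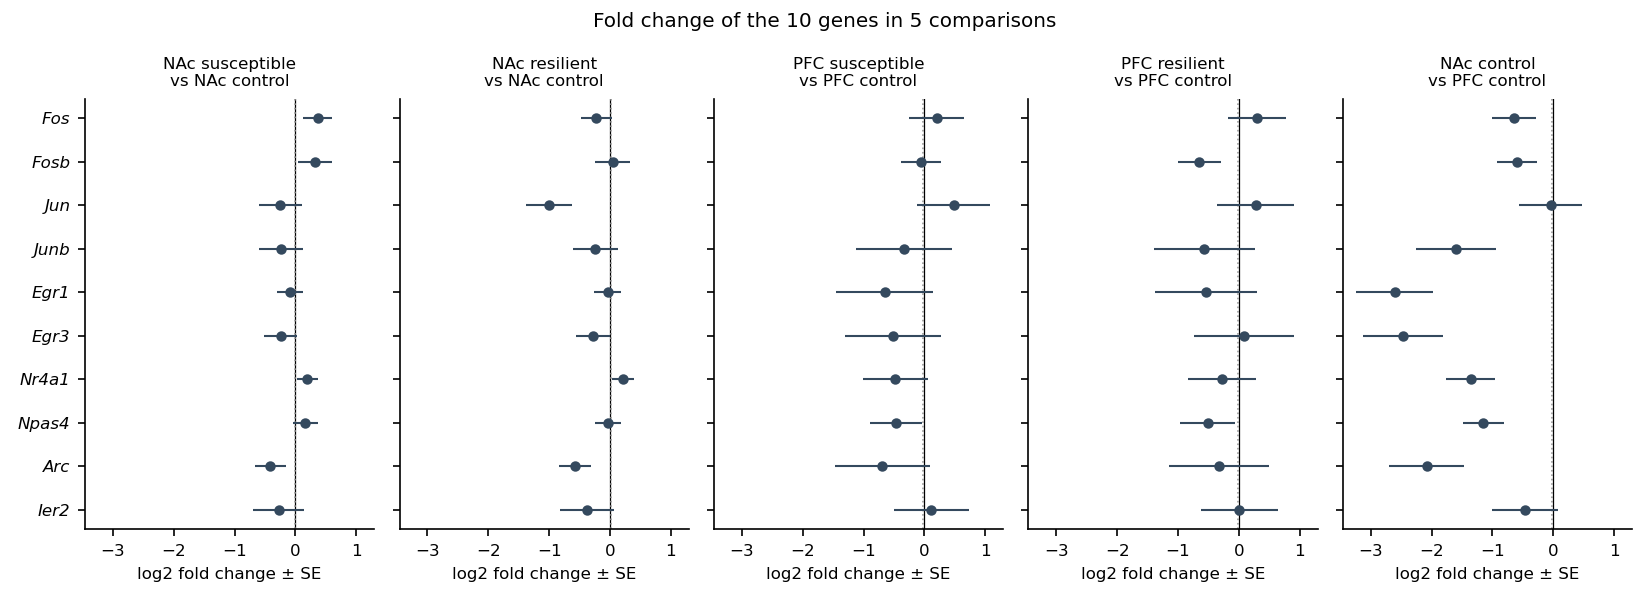
Log2 fold change with its SE (horizontal bars) of each gene in 5 comparisons; the solid line is 0 and the dotted line the median of all genes tested. SEs are 0.17 to 0.44 in the NAc and 0.33 to 0.84 between PFC conditions, and the 10 points of the region comparison all lie below 0.

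Other genes of the same response gave no call in the NAc either. Of 60 further primary response genes, 0 were called and 2 higher and 1 lower passed an unadjusted p of 0.05 in susceptible against control mice, with a median fold change of -0.00. In resilient against control mice 0 were called, 0 and 3 passed unadjusted, and the median was -0.10. The smallest p-values belonged to Homer1, a synaptic scaffold gene (-0.28 ± 0.12), Klf10 (0.40 ± 0.19), the cytokine inhibitor gene Socs3 (0.67 ± 0.32) and the Fos relative Fosl2 (0.32 ± 0.16) for susceptible mice. For resilient mice they belonged to Klf2 (-0.85 ± 0.30), Arl4d (-0.67 ± 0.32), Btg2 (-0.52 ± 0.25) and Nfkbia (-0.62 ± 0.31). Each had an adjusted p of at least 0.756 in edgeR.

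Among 29 kinases and factors that act on immediate early promoters, 0 were called. Their median was -0.13 in susceptible and -0.12 in resilient against control mice, and 25 and 24 of 29 had a negative fold change. Mef2a (-0.31 ± 0.13), the CREB gene Creb1 (-0.26 ± 0.15), its coactivator Crebbp (-0.29 ± 0.17) and Nfatc3 (-0.15 ± 0.10) had the smallest p-values for susceptible mice. Crebbp (-0.47 ± 0.18), the SRF partners Elk4 (-0.30 ± 0.14) and Elk1 (-0.43 ± 0.23) and the kinase gene Map2k1 (-0.20 ± 0.11) had them for resilient mice. Of 15 bZIP genes whose products pair with Fos or Jun, 0 were called, with medians of 0.06 and -0.06. Batf (0.22 ± 0.17) and Atf2 (-0.21 ± 0.16) were nearest for susceptible mice, after Fosl2. Mafk (-0.45 ± 0.17), Jund (-0.86 ± 0.48) and Atf4 (-0.68 ± 0.40) were nearest for resilient mice.

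Heat shock genes, which are often induced with immediate early genes when tissue is taken apart, were the list with the lowest median of these. In resilient against control mice all 14 had a negative fold change, the median was -0.76 and 10 passed an unadjusted p of 0.05, yet 0 were called (smallest adjusted p of 0.756 in edgeR). The chaperone genes Dnaja1 (-0.80 ± 0.21), Hspb1 (-1.01 ± 0.29), Hsp90aa1 (-1.37 ± 0.42) and Hspa5 (-0.97 ± 0.35) had the smallest p-values. In susceptible against control mice 13 of 14 were negative, with a median of -0.24 and 0 below an unadjusted p of 0.05. The mean background was 64.6% in resilient, 56.0% in susceptible and 53.2% in control libraries, and its part in these values was not tested.

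The same comparisons in the PFC gave no call. With 0% of 32167 genes called in each, none of the 10 passed an adjusted or an unadjusted p of 0.05 in edgeR, and DESeq2 and limma-voom called none. The counts of genes at an unadjusted p under 0.05 were 155, 192 and 184. With the replicate number as a block, which groups same-numbered libraries, they were 819, 624 and 502. No gene was called with the block, and 1 member, Npas4 in resilient against control mice (-0.68 ± 0.32), had an unadjusted p under 0.05. With the pan-neuronal covariate 1 member had such a p in susceptible against control mice (2519 of all genes) and 2 in susceptible against resilient mice (861). The background covariate gave 2 members in susceptible against control mice (1058 of all genes), and limma-voom 1 in resilient against control mice (1522). No gene was called in these. Arc was at 1.86, 4.17 and 23.7 FPKM (lowest, median and highest) in PFC control and 1.74, 3.24 and 14.1 in susceptible libraries, and at 16.6, 6.27, 2.50, 1.88 and 3.22 FPKM in resilient libraries 1 to 5. Egr1 was at 1.42, 3.30 and 16.9 FPKM and 1.27, 1.66 and 11.9 FPKM, and at 10.3, 4.16, 1.45, 1.43 and 2.12 FPKM. Egr3 was at 1.20, 2.22 and 11.9 FPKM and 0.604, 1.45 and 9.14 FPKM, and at 11.2, 3.6, 2.76, 1.39 and 2.18 FPKM. In each group of the PFC the highest libraries were those with low sample numbers, and the 3 groups overlapped.

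Against PFC control mice, Arc was -0.69 ± 0.78 in susceptible and -0.32 ± 0.82 in resilient mice, Egr1 -0.65 ± 0.80 and -0.54 ± 0.84, and Egr3 -0.51 ± 0.79 and 0.09 ± 0.82. The fold changes of all 10 genes lay between -0.69 and 0.48 for susceptible and between -0.65 and 0.29 for resilient mice. In the same contrasts 18 of 18 astrocyte markers had positive fold changes, with a median of 0.70 in each, and 17 and 13 of 20 pan-neuronal markers had negative ones, with medians of -0.28 and -0.04. All 9 pericyte and smooth muscle markers were positive in susceptible mice, with a median of 0.57. None of these markers was called, and their part in the members' values was not tested. The members' values turn on single libraries. Without PFC susceptible 1 the susceptible values of Arc, Egr1 and Egr3 were -1.76, -1.96 and -1.80, and without PFC control 2 they were 0.28, 0.25 and 0.42. Without PFC resilient 1 the resilient values were -1.25, -1.41 and -0.83, and without PFC control 2 they were 0.67, 0.38 and 1.03. None of these was called. Both contrasts share their control libraries. Directly between susceptible and resilient mice the 10 fold changes lay between -0.60 and 0.59, with 5 of either sign.

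The other members had narrower ranges in the PFC. Jun was at 1.72, 2.93 and 6.16 FPKM in control, 1.40, 3.27 and 11.3 in susceptible libraries and 6.01, 6.99, 2.54, 1.73 and 2.30 FPKM in resilient libraries 1 to 5, with fold changes against control of 0.48 ± 0.60 and 0.28 ± 0.63. Fos was at 0.826, 1.28 and 2.93 FPKM, at 1.04, 1.62 and 3.20 FPKM, and at 2.33, 2.37, 0.737, 1.51 and 2.04 FPKM, with 0.20 ± 0.46 and 0.29 ± 0.48. For both genes the highest library of each group was again among sample numbers 1 to 11. Fosb, at 0.593, 0.895 and 1.38 FPKM in control, 0.408, 0.902 and 1.26 in susceptible and 0.714, 0.273, 0.339, 0.802 and 0.665 in resilient libraries, showed no such order. Its resilient value of -0.65 ± 0.36 was the farthest from 0 relative to its SE among the 10.

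Junb was at 0.772, 1.35 and 10.5 FPKM in PFC control, 0.767, 1.72 and 5.84 in susceptible and 5.22, 0.666, 1.38, 0.788 and 2.55 FPKM in resilient libraries, with -0.33 ± 0.79 and -0.57 ± 0.83. Nr4a1 was at 1.11, 1.46 and 4.49 FPKM in control, 0.943, 1.22 and 3.25 in susceptible and 3.30, 2.18, 0.607, 1.15 and 1.32 FPKM in resilient libraries, with -0.48 ± 0.53 and -0.27 ± 0.56. Npas4 was at 0.969, 1.78 and 3.56 FPKM, at 0.549, 1.31 and 2.43 FPKM, and at 2.07, 0.909, 0.837, 1.34 and 1.28 FPKM, with -0.46 ± 0.43 and -0.51 ± 0.45. Ier2 was at 0.359, 0.610 and 2.04 FPKM, at 0, 0.768 and 2.15 FPKM, and at 1.89, 0.790, 0.818, 0.678 and 0.378 FPKM, on at most 27 counts. The groups overlapped for all 4 genes.

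The effects of stress were then compared between regions. The interaction called 0% of 38171 genes for either the susceptible or the resilient effect, and 0 of the 10 genes passed an unadjusted p of 0.05. The most distant values for the susceptible effect, NAc minus PFC, were Jun at -0.76 ± 0.71 and Nr4a1 at 0.71 ± 0.56. For the resilient effect Jun was at -1.32 ± 0.75 (adjusted p = 0.849 in edgeR), the value farthest from 0 of the 10. In that contrast 18 of 18 astrocyte markers (median -1.28, 5 at an unadjusted p under 0.05) and 12 of 12 oligodendrocyte markers (median -1.41, 10 unadjusted) were negative too, with 0 called. For the susceptible effect both lists were all negative as well, with medians of -0.83 and -0.81. Their part in the values of Jun was not tested.

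Between the control mice of the regions all 10 genes had a negative fitted fold change, NAc against PFC. The median was -1.25 beside -0.02 over all genes, and 6 of 10 had an unadjusted p under 0.05. None was called by edgeR, which called 0.00262% of 38171 genes (1 gene), with 1924 genes at an unadjusted p under 0.05. DESeq2 called 1 of the 10, Egr1 (adjusted p = 0.0181), among 81 genes called. Limma-voom with library weights called none of the 10 and 16 of all genes. Egr1 had 0.869, 1.19 and 1.87 FPKM in the NAc and 1.42, 3.30 and 16.9 in the PFC controls, where replicates 1 and 2 had 8.72 and 16.9 and the other 4 had 1.42 to 4.19. Its fold change was -2.61 ± 0.63 (adjusted p = 0.220). Egr3 followed with -2.47 ± 0.65 (adjusted p = 0.220), and 5 of 7 NAc controls lay below the lowest PFC control. Arc had -2.08 ± 0.62 (adjusted p = 0.275), Junb -1.60 ± 0.66, Nr4a1 -1.35 ± 0.40 and Npas4 -1.15 ± 0.34. Fos (-0.65 ± 0.36), Fosb (-0.59 ± 0.33) and Ier2 (-0.46 ± 0.54) were closer to 0. Jun was at -0.04 ± 0.52. By mean FPKM, Jun (4.07 in NAc and 3.56 in PFC controls) and Ier2 (1.13 and 1.01) were higher in the NAc. Without PFC control 2 the values were -1.69 for Egr1, -1.52 for Egr3, -1.08 for Arc, -0.82 for Nr4a1, -0.69 for Npas4, -0.37 for Junb, -0.30 for Fosb, -0.20 for Fos, -0.0036 for Ier2 and 0.32 for Jun.

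The neuronal markers were lower in NAc controls as well. The pan-neuronal level was 0.86 log2 CPM lower in NAc than in PFC controls (4.97 against 5.83, exact permutation p = 0.0152, two-sided, adjusted 0.318). Of the 20 pan-neuronal genes 19 had a negative fold change, with a median of -1.10. Their summed level, as CPM of the unadjusted library total, was 1473 to 2432 in NAc controls and 1670 to 5227 in PFC controls, and all 20 genes had counts in every library. Lower too were microglial (13 of 14 negative, median -0.40), endothelial (10 of 10, -0.26) and pericyte and smooth muscle markers (7 of 9, -0.24), with 0 called. Oligodendrocyte markers went the other way, with 12 of 12 positive fold changes, a median of 0.87 and 0 called. Of 18 astrocyte markers 12 were positive, with a median of 0.20. The part of these marker lists in the members' values was not tested beyond the covariate fits given next. Of the 60 further primary response genes 53 had a negative fold change, with a median of -0.35 and 0 called. The nearest were the growth gene Nrn1 (-2.01 ± 0.46), Klf10 (-1.51 ± 0.37), the ERK phosphatase gene Dusp6 (-1.41 ± 0.40) and Egr4 (-1.89 ± 0.57). Camk2a, a kinase gene abundant in cortical excitatory neurons, was -2.04 ± 0.56.

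Without the PFC libraries of sample numbers 1 to 11, an alternative chosen after seeing the data, the values between regions were -0.98 for Egr1, -0.93 for Egr3, -0.43 for Arc, -0.61 for Npas4 and -0.33 for Nr4a1. Those of Jun (0.75), Ier2 (0.50), Junb (0.22) and Fos (0.08) were positive. With the pan-neuronal level as a covariate Arc was 0.19, Nr4a1 -0.05, Egr1 -0.35 and Egr3 -0.35, while Jun was 1.22 and was called higher in the NAc (adjusted p = 0.0485). That fit called 1250 of all genes. With the background percent as a covariate Egr1 (-1.65), Egr3 (-1.61) and Arc (-1.16) were called lower in the NAc, with adjusted p-values of 0.0223, 0.0249 and 0.0478. There 297 of all genes were called, against 1 in the main fit.

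**Figure D3:**
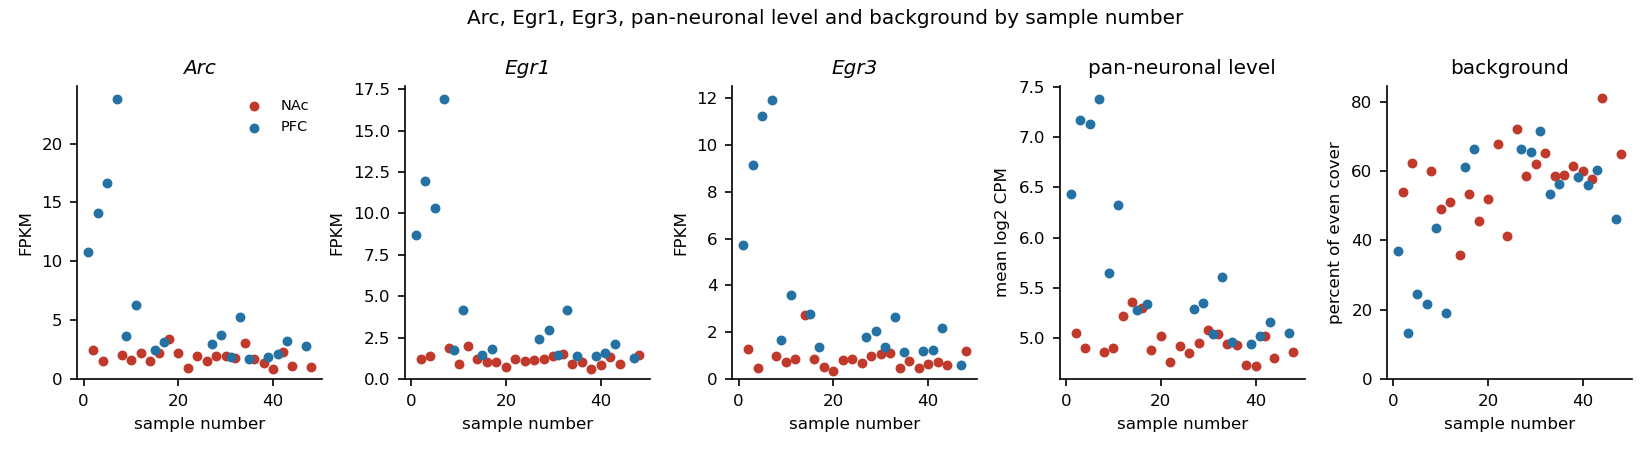
FPKM of Arc, Egr1 and Egr3, the pan-neuronal level (mean log2 CPM of 20 genes) and the background (percent of an even cover of counts) against the sample number of each library, NAc in red and PFC in blue. The PFC libraries with the lowest numbers hold Arc up to 23.7 FPKM, a pan-neuronal level up to 7.38 and a background down to 13.4%, while NAc libraries with low numbers do not stand apart.

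Each gene was next related to the pan-neuronal level over the libraries of a region, as log2 CPM, with permutation tests adjusted over 20 relations. Only these 10 genes were put through the test, so the share of all genes that would pass is not known. Whether the counts that pass are a trait of this family was therefore not tested. In the NAc the pan-neuronal level covered a narrow span of 4.72 to 5.36. Here 5 of 10 genes passed, all with positive r: Egr3 (r = 0.592, adjusted p = 0.0105), Ier2 (0.525, 0.0282), Arc (0.517, 0.0246), Junb (0.513, 0.0410) and Jun (0.503, 0.0272). Of these, Arc (rho = 0.700, adjusted p = 0.00235), Jun (0.490, 0.0417) and Junb (0.486, 0.0417) passed by rank as well, while Egr3 had rho = 0.379 and Ier2 0.426. Fos had r = -0.188 and rho = -0.286. Without NAc control 3 and NAc resilient 2, the libraries farthest from the median, r was 0.692 for Arc, 0.416 for Jun, 0.351 for Ier2, 0.322 for Junb and 0.305 for Egr3. Fosb went from 0.439 to -0.0345. After the background percent was regressed out, none of the 10 passed in the NAc, and r was 0.480 for Egr3.

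In the PFC the relation over 17 libraries spans the gap between the 5 libraries that stand apart and the rest. Values within the 11 libraries of later sample numbers are therefore given beside it. Those 11 leave out PFC susceptible 2 as well, with sample number 9 and a pan-neuronal level of 5.65. Over all 17, 9 of 10 genes passed, all but Fosb (r = 0.455, rho = 0.353), and the share of all genes that would pass was not computed. Arc had r = 0.987 (rho = 0.944), Egr1 0.978 (0.924), Egr3 0.961 (0.887), Nr4a1 0.943 (0.770), Jun 0.849 (0.657) and Npas4 0.826 (0.637). Fos (0.790, 0.544), Junb (0.770, 0.593) and Ier2 (0.685, 0.676) were lower. The permutation p of Arc, Egr1, Egr3, Nr4a1 and Jun was 1e-05, the smallest that 100000 resamples can give, and 4e-05 adjusted. Without PFC control 2 and PFC susceptible 1, r was 0.979 for Arc, 0.957 for Egr1, 0.931 for Egr3 and 0.893 for Nr4a1.

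Within the 11 PFC libraries of later sample numbers, 2 genes passed: Arc (r = 0.887, adjusted p = 0.0067) and Egr1 (r = 0.870, adjusted p = 0.0067). Egr3 had r = 0.652 (adjusted p = 0.0751) and Npas4 0.522. Ier2 had 0.176, Nr4a1 0.146, Junb 0.0502, Jun 0.0178 and Fosb 0.0112, and Fos had r = -0.443 (adjusted p = 0.284). After regressing out the background percent over 17 libraries, r was 0.945 for Arc, 0.928 for Egr1, 0.903 for Egr3, 0.802 for Npas4, 0.744 for Nr4a1 and 0.639 for Ier2, and these 6 passed. Jun (0.125) and Fos (0.0690) did not.

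**Figure D4:**
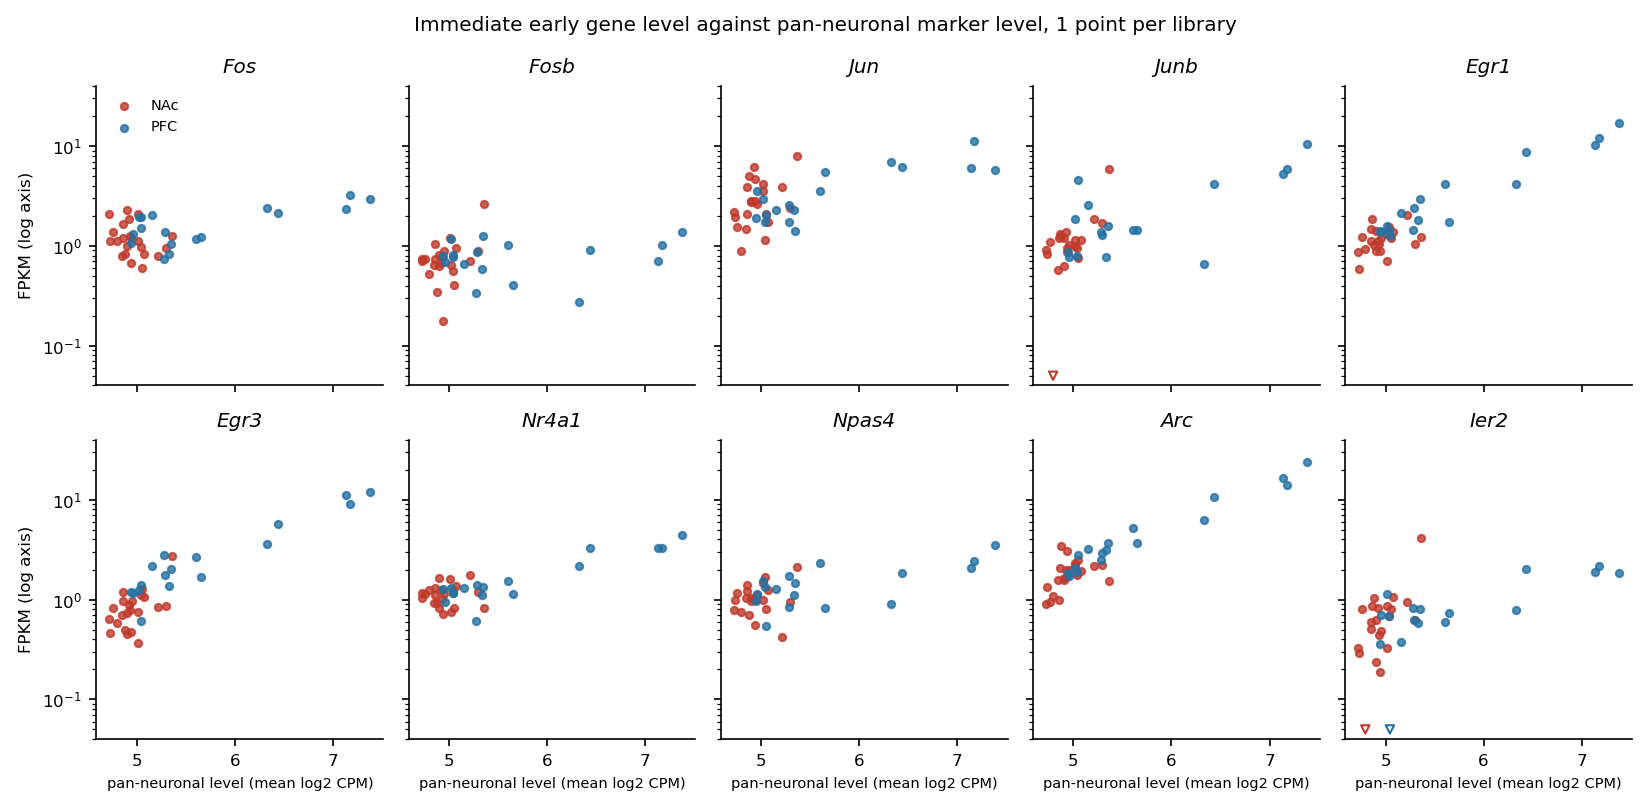
FPKM of each gene (log axis) against the pan-neuronal level (mean log2 CPM of 20 neuronal genes), 1 point per library, NAc red and PFC blue, with open triangles for 0 counts. Arc, Egr1 and Egr3 are highest at the upper end of the PFC range from 4.94 to 7.38, which holds no library between 5.65 and 6.33. NAc points sit in a narrow span of 4.72 to 5.36.

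Jun and Junb had the lowest r with the background among NAc members. This set of relations, chosen after seeing the data, took the background percent of a library as x, with p-values adjusted over 24 relations. In the NAc, Jun had r = -0.858 (rho = -0.840) and Junb r = -0.778 (rho = -0.718), both with an adjusted p of 6e-05. Arc had r = -0.538 (rho = -0.689, adjusted p = 0.0154 for r). Ier2 had r = -0.670 but did not pass by rank (rho = -0.395, adjusted p = 0.103). Egr1 (-0.150), Nr4a1 (-0.119) and Npas4 (-0.219) had adjusted p-values of 0.352 or more. In the PFC, Jun had r = -0.938, Nr4a1 -0.880, Fos -0.877 and Arc -0.876, and Fosb had -0.293. Without the farthest libraries (NAc control 3 and NAc resilient 7, and PFC resilient 2 and PFC susceptible 1), r for Jun was -0.777 in the NAc and -0.899 in the PFC. In the NAc it was then -0.668 for Junb, -0.610 for Arc and -0.189 for Ier2. The pan-neuronal level itself had r = -0.614 with the background in the NAc and -0.883 in the PFC, and the astrocyte level -0.763 and -0.827. Markers, background and genes share the library, so these relations are not independent of each other.

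Against other marker lists, over 80 relations, Jun rose with the astrocyte level in both regions (r = 0.865 in the NAc and 0.834 in the PFC, adjusted p = 0.0004 in both). It did so with the oligodendrocyte level (0.794 and 0.859) and the endothelial level (0.644 and 0.864) as well. Arc rose with the oligodendrocyte (0.799), endothelial (0.622) and astrocyte level (0.593) in the NAc. Junb passed there with the astrocyte level alone (r = 0.482, adjusted p = 0.0476), but not by rank (rho = 0.516, adjusted p = 0.0564). Fos, Fosb, Egr1, Egr3, Nr4a1, Npas4 and Ier2 passed with none of the 4 lists in the NAc. None of the 10 passed with the microglial list there. In the PFC, 7 of 10 passed with the endothelial level, 5 with the oligodendrocyte level, 2 with the astrocyte level and 1, Fosb, with the microglial level (r = 0.650, adjusted p = 0.0187). By rank, Egr1 and Egr3 did not pass with the endothelial level (adjusted p = 0.0979 and 0.0789), nor Nr4a1 with the oligodendrocyte level (0.0757). Fosb did not pass by rank either (rho = 0.551, adjusted p = 0.0789), and had r = 0.327 without PFC resilient 2 and 3. The PFC values include the libraries that stand apart and were not computed without all of them. Here too the share of all genes that would pass was not computed.

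Pairs of these genes were more alike in the PFC libraries than in the NAc libraries, as a description without a test. Over the 45 pairs of genes, the median r of log2 CPM was 0.766 in the PFC, with 38 pairs above 0.5, and 0.262 in the NAc, with 9 pairs above 0.5. These are descriptions over 17 and 22 libraries that share depth and background. The PFC values also span the gap between the libraries that stand apart and the rest, and were not computed without the former. The closest PFC pairs were Egr1 with Arc (0.982), Egr1 with Nr4a1 (0.958) and Egr1 with Egr3 (0.956). The closest NAc pair was Junb with Ier2 (0.879), the genes with the fewest counts, followed by Jun with Junb (0.652) and Fosb with Npas4 (0.646). Fos and Arc, which neurons induce together, had r = -0.361 in the NAc. After removal of group means the medians were 0.784 and 0.223.

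**Figure D5:**
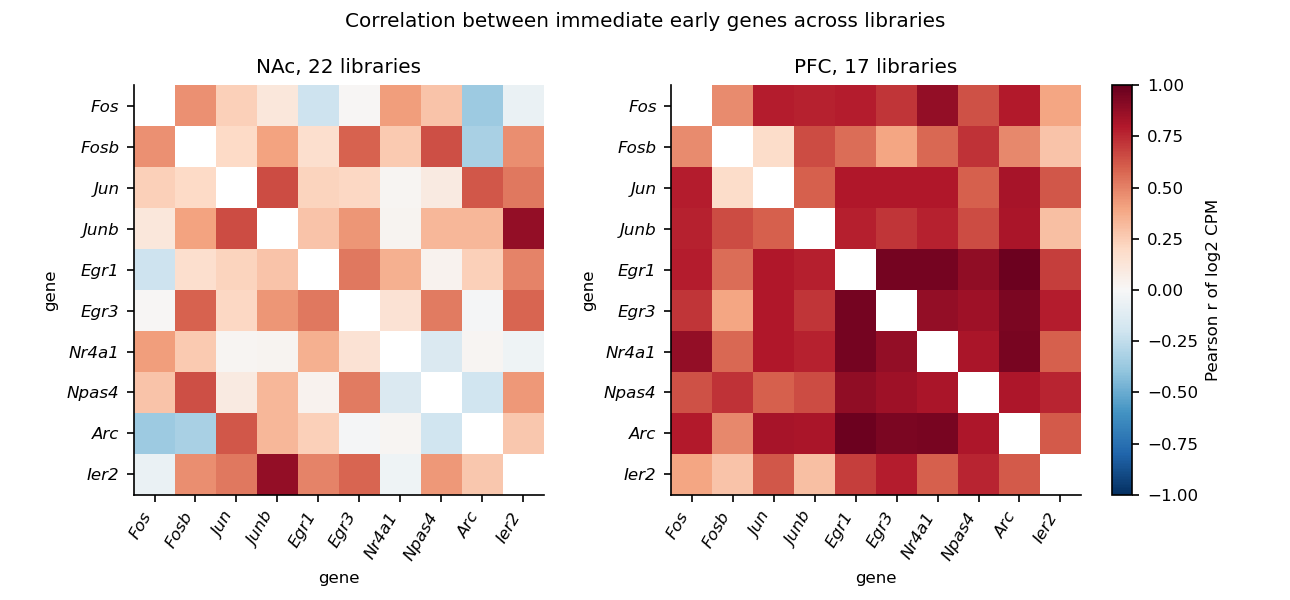
Pearson r of log2 CPM between each pair of genes over 22 NAc libraries (left) and 17 PFC libraries (right), red positive and blue negative. PFC pairs run from 0.184 to 0.982, and NAc pairs from -0.361 to 0.879.

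Genes with the most similar pattern over the 22 NAc libraries, after removal of group means and among 5426 genes at over 2 times background and above a log2 CPM of 3, differed between members. For Jun they were Ldb1 (r = 0.955), Smarcc2 (0.950) and Flii (0.950), for Arc Sf3b3 (0.884), Lpgat1 (0.868) and Aatk (0.858), and for Junb Taf12 (0.902), Taf4 (0.891) and Osbpl2 (0.888). For Fosb they were Fam163b (0.892), Nuak2 (0.878) and Vwa3a (0.875), for Egr3 Speg (0.872), Mapk8ip2 (0.850) and Phyhip (0.849), and for Ier2 Tex264 (0.845), Rrp7a (0.817) and Kcnc1 (0.815). Npas4 was most like Chrm1 (0.827), Disp2 (0.816) and She (0.814), and Nr4a1 most like Ccnd3 (0.734), Slc38a1 (0.707) and Arhgap31 (0.701). Fos was most like Ttll8 (0.776), Syt17 (0.674) and Armc5 (0.666), and Egr1 most like Des (0.645), Ltbp4 (0.640) and Tns2 (0.609). The search left out genes below that level, members among them: Junb and Ier2, both left out, had r = 0.867 with each other.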

How the data were processed

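RNA of bead-enriched cells was sequenced in 39 libraries after Takara SMARTer Stranded Total RNA Pico preparation, per the labels' protocols. The authors deposited whole-number counts per gene, made with featureCounts on mm10 per the submitters' processing notes, and FPKM, which are those counts divided by gene span and library total. No source used here gives the aligner, annotation, versions or strand setting. For 54701 of 55276 genes with counts the implied length equalled the GENCODE M21 gene span within a relative difference of 1e-06, so introns are counted. No library pair held identical counts.

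Tests on counts used edgeR 4.0.16 under R 4.3.3 and its quasi-likelihood method (trimmed-mean scaling, default filter by group, robust dispersion, Benjamini-Hochberg adjustment over all genes, called below 0.05), with 1 fit of 3 conditions per region and 1 fit of all 39 libraries in 6 groups for region contrasts. Code was tested on simulated counts. Levels are compared between genes as FPKM, and relations use log2 CPM with a prior count of 0.5, permutation tests with 100000 resamples (numpy 2.4.6), and exact permutation tests for marker levels. Background is the pooled FPKM of 1479 receptor genes (summed counts over summed length and library total). It is given as a percent of 0.764, the FPKM of an even cover.

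Alternatives were relative log expression scaling, no filter, DESeq2 1.42.0, limma 3.58.1 voom with library weights, a replicate block, background or pan-neuronal level as a covariate, the data without the 3 lowest totals, fits of only 2 groups, consecutive sample numbers as pairs, and each library left out. Added after seeing the data were fits without the PFC libraries of sample numbers 1 to 11, fits without replicates 1 and 2 of either region, and the relations with background. Same-numbered PFC libraries deviated together (correlations of 0.145 to 0.925, all 16 pairs above 0.1), and NAc correlations had both signs. The same-numbered PFC library was the closest match in 2 of 6 (control, susceptible), 1 of 5 (control, resilient) and 2 of 5 (susceptible, resilient) cases. No label ties the numbers, so pairing by replicate number is not established, and the replicate block is an alternative only. All 10 members are named, with the 4 smallest p-values per gene list and comparison and the 3 most similar genes per member. Members and lists were chosen with earlier results of these data known.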

Additional observations from a re-analysis of the deposited data

Results flagged for a closer look

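In 9 of 60 sets (10 genes in 6 groups), the highest or lowest library lay far from the others of its group by Dixon's criterion on log2 CPM, where chance gives about 3 of 60. PFC susceptible 1 was high for Egr1 (11.9 FPKM, the others 1.27 to 2.94), Arc (14.1, the others 1.74 to 3.72), Egr3 (9.14, the others 0.604 to 2.04) and Nr4a1 (3.25, the others 0.943 to 1.33). NAc control 3, with 941450 counts, was high for Junb (5.87 FPKM from 10 counts, the others 0.752 to 1.33). NAc resilient 7, with 3156259 counts, had 0 counts of Junb (the others 0.577 to 1.84 FPKM) and of Ier2 (the others 0.291 to 0.956 FPKM). PFC susceptible 6, with 1222948 counts, had 0 counts of Ier2 (the others 0.703 to 2.15 FPKM). NAc susceptible 8 was low for Arc (0.999 FPKM, the others 1.58 to 2.31).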

How the results depend on the processing

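Depth, background and single libraries limit these values: Junb and Ier2 rest on medians of 24.5 and 10.5 counts per NAc library, and Fosb, Egr3 and Ier2 lie near the receptor-gene background. The count of members called was 0 under every alternative and every library left out in all 9 comparisons, except between the regions' controls, where it was 1 with DESeq2 (81 of all genes called, against 1 in edgeR), 3 with the background covariate (297 genes) and 1 with the pan-neuronal covariate (1250 genes). Limma-voom called 16 genes and the fit of only the 2 groups 3 genes there, with 0 members. The replicate block changed no call; consecutive sample numbers as pairs called 0 genes. Ier2 was not tested in the PFC without control replicate 2 or in the PFC fit of susceptible and resilient libraries alone.

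The number of members related to neuronal markers was 5 in the NAc and fell to 2 for deviations from group means, 3 with striatal neuron markers, 0 after regressing out background and 1 without the 3 lowest totals. In the PFC it was 9, and 2 without sample numbers 1 to 11. No such count was made over all genes.

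Some directions turned, and the causes were not tested. Of the turned values 1 was called, Jun between the regions' controls with the pan-neuronal covariate. Against NAc control, resilient values turned for Fosb with DESeq2 (-0.055), Nr4a1 with limma-voom (-0.080), Junb and Ier2 with the background covariate (0.22 and 0.037) and Npas4 without the lowest totals (0.063). For PFC resilient mice Egr3 was -0.22 with the replicate block. Between the regions' controls Jun turned with DESeq2 (0.048), limma-voom (0.40), the replicate block (0.26), the background covariate (0.34), the pan-neuronal covariate (1.22), without sample numbers 1 to 11 (0.75) and without replicates 1 and 2 of either region (0.90). Fos turned with limma-voom (0.073), the pan-neuronal covariate (0.21) and those same libraries left out (0.083 and 0.22), and Ier2 did too (0.15, 0.80, 0.50 and 0.43). Junb turned with the pan-neuronal covariate (0.52) and those libraries left out (0.22 and 0.33), and Arc with the pan-neuronal covariate (0.19). Correlations that turned were NAc Jun after regressing out background (-0.058), NAc Npas4 without the lowest totals (-0.18) and PFC Fos without sample numbers 1 to 11 (-0.44).

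With single libraries left out, susceptible values against NAc control ran from -0.18 to 0.078 for Egr1. Resilient values ran from -0.32 to 0.017 for Fos, -0.092 to 0.26 for Fosb, -0.26 to 0.12 for Egr1 and -0.15 to 0.10 for Npas4. In the PFC, Egr1 ran from -1.96 to 0.25, Egr3 from -1.80 to 0.42 and Arc from -1.76 to 0.28 for susceptible mice, and -1.41 to 0.38, -0.83 to 1.03 and -1.25 to 0.67 for resilient mice. Between the regions' controls Jun ran from -0.22 to 0.32, and its susceptible effect in the NAc minus PFC from -1.12 to 0.032.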
